A study of Mus musculus with 9 samples.

Results

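The genes described here are 9 meiotic strand exchange genes among the 32285 genes of the deposited UMI tables: Meiob, Spata22, Dmc1, Psmc3ip, Mnd1, Brca2, Rad51ap2, Rad51c and Swsap1. They were matched by gene symbol, with no measured value in the rule, but the genes were proposed with earlier results of these data known. Each symbol matched 1 gene. Their UMIs (unique molecular identifiers, each of which counts 1 captured transcript) were summed per mouse within each germ cell stage and compared across the stages and the 3 genotypes. Testes of 9 mice at postnatal day (PND) 24 gave 1 single cell RNA-seq library each, with 4 libraries from controls, 2 from NELF-B cKO and 3 from TDP-43 cKO mice, all labelled C57BL/6. By the methods, the floxed Nelfb line came from C57BL/6 N and the floxed Tardbp line from both the N and the J substrain, and the mice were then backcrossed to C57BL/6 J. In the conditional knockout (cKO) mice 1 allele of Nelfb or Tardbp was null and the other was floxed. The transgene Stra8-iCre removed the floxed part in spermatogonia (SG) from PND4 on. In Nelfb this part spans exons 1 to 4, and in Tardbp it is exon 3. The controls were littermates or non-littermates, and the study calls its controls wild type. The labels give no alleles for the single control mice. The name of the deposited data of 1 control holds the word het, which was not used here.

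In meiosis, SPO11 cuts both strands of the DNA and the ends are resected to 3′ single strands. The single strands are coated and protected, loaded with recombinase, and then invade the homologous chromosome. This work begins in leptotene (L), is at its height in zygotene (Z), and gives way to the maturation of joint molecules in pachytene (P). MEIOB and SPATA22 form a complex on single-stranded DNA. DMC1 is the meiosis-specific recombinase. PSMC3IP (HOP2) and MND1 form the heterodimer that stimulates DMC1. BRCA2 brings recombinase to the single strands, RAD51AP2 is a protein found in meiotic cells, RAD51C takes part in recombinational repair, and SWSAP1 is a partner of the SWS1 (ZSWIM7) protein.

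All 9 genes are protein-coding, and their positions are given for the GRCm38 build. Meiob lies on chromosome 17 from 24804289 to 24839788, and Spata22 on chromosome 11 from 73329741 to 73346044. Dmc1 lies on chromosome 15 from 79561497 to 79605109. Psmc3ip lies on chromosome 11 from 101091823 to 101095436, where it overlaps Mlx on the opposite strand, and Mnd1 on chromosome 3 from 84087933 to 84155786. Brca2 lies on chromosome 5 from 150522630 to 150570329 and overlaps 2 other counted genes, Gm42529 on the opposite strand and Gm42531 on its own. Rad51ap2 lies on chromosome 12 from 11456079 to 11462928, Rad51c on chromosome 11 from 87376645 to 87404954 and Swsap1 on chromosome 9 from 21955755 to 21958264.

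Promoter sequence was available from RefSeq (GRCm38.p6) for 8 of the 9 genes, with 250 bases before and 50 bases from the start of the transcript. Meiob had no entry. Both strands were searched for the letters of 4 motifs that bind factors active in germ cells or in the cell cycle. The E2F motif TTCCCGC was found in the promoters of 4 genes, Brca2, Rad51ap2, Rad51c and Spata22, and in 4.6% of all 32851 promoters of the table. The windows of 30 bases below are shown because these are the letters that the 4 promoters share. They are written 5′ to 3′ along the strand of the gene, and the capitals mark the motif, which stands on the opposite strand in each.
Rad51ap2 (chr12:11456032-11456061, plus strand): gccggagcgagGCGGGAAtctccgacagat
Spata22 (chr11:73329726-73329755, plus strand): ggttttcagagGCGGGAAgttccgcgtggc
Rad51c (chr11:87404941-87404970, minus strand): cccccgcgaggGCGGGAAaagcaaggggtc
Brca2 (chr5:150522442-150522471, plus strand): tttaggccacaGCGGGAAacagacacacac

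In Rad51ap2, Spata22 and Rad51c the first base of the motif lay 12, 4 and 5 bases before the start, and in Brca2 it lay 168 bases before it. The full cyclic AMP response element TGACGTCA was found in 2 of the 8 genes with a promoter, Brca2 and Rad51c, and in 1.79% of all promoters. Its windows are shown because both genes were highest in L by CPM (defined below). Dmc1, Spata22 and Swsap1 were also highest in L by CPM and held no match. In UMIs per cell Brca2 and Rad51c were highest in P. In Rad51c the element stood before another transcript start than the E2F motif, since RefSeq lists 2 starts for this gene.
Brca2 (chr5:150522590-150522619, plus strand): tcgcggggtcaTGACGTCAcgggcagagcg
Rad51c (chr11:87404533-87404562, minus strand): cgccgcgcgtgTGACGTCAcgccactgacc

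The motif CNCCTCAG of STRA8 and MEIOSIN, the factors that switch on meiotic genes, was found in Swsap1 alone among the 8 genes and in 7.94% of all promoters. The MYB motif TAACGG was found in Rad51ap2 alone and in 2.76% of all promoters. A match is a description of these letters, and none of these factors was measured at these promoters.

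The libraries held 119203347 to 159407373 UMIs, and 45132 barcodes passed the filter on genes and mitochondrial transcripts, of which 260 barcode sequences occurred in 2 or more libraries (1 to 24 in any pair). Germ cells were clustered after integration across the genotypes, and none of the 9 genes entered the clustering or the marker lists. Stages are clusters that resemble the stage by those markers: SG, preleptotene (pL), L, Z, P, diplotene (D) and round spermatids (RS). 1 cluster held markers of both SG and pL, with Ccnd1, Dmrt1 and Rhox13 among its leading genes, and is called SG/pL. The stages held 15204 cells. In the cKO mice, cells that still showed a targeted transcript (183 in NELF-B cKO, 3060 in TDP-43 cKO) were removed, which left 11961. Nelfb stood at 62.3 to 73.9 CPM (the UMIs of a gene scaled to the total UMIs of the summed cells) in the early germ cells of the controls, and at 4.18 and 5.02 CPM in the NELF-B cKO mice before any cell was left out. Tardbp stood at 106 to 138 CPM in the controls and at 34.4 to 50.2 CPM in the TDP-43 cKO mice, but its 3′ end lies outside the deleted exon, so these UMIs do not report the deletion itself. After this removal, P, D and RS cells were too few in the TDP-43 cKO mice for a comparison. With no cell left out, replicates 2 and 3 held 135 and 109 P cells and 63 and 44 D cells, and replicate 1 held 4 of each.

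The 2 NELF-B cKO mice did not resemble each other. Replicate 1 held 278 D cells and 76 RS cells, and replicate 2 held 5 and 1. Among their SG, 64.4% of the cells of replicate 1 and 32.4% of those of replicate 2 lay in the cluster led by Lin28a and Crabp1, against 30.6% to 38.9% in the controls. Their P cells also differed in makeup, with 137 of 150 cells of replicate 1 (91.3%) and 8 of 34 cells of replicate 2 (23.5%) in cluster 9, one of the P clusters, against 46.4% to 68.1% in the controls. For the 9 genes, results for NELF-B cKO are therefore given for both mice, and where leaving out 1 of them lost a call this is stated. Calls gained with a mouse left out are not all given. Nothing in the labels says which libraries share a litter or a day. Codes in the names of the deposited data are shared by some libraries, within and across genotypes, and may mark litters. Their meaning is not given, so they were not used as blocks, and the p-values treat the mice as independent.

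Across the stages of the control mice, the 9 genes did not share 1 highest stage. In the sentences that follow the values are the CPM of control replicates 1 to 4, and no test was made between stages, because stages are clusters of the same cells. Brca2 was present in SG already, at 114, 121, 130.2 and 129 CPM, rose to 278, 334, 259 and 276 CPM in pL, and was highest in L at 413, 511, 468 and 486 CPM. It was down to 127, 116, 133 and 117 CPM in Z. In CPM every control mouse was thus higher in L than in any other stage, and the ranges of pL and L did not meet. In UMIs per cell the highest control median of Brca2 was in P. Cells of P held more UMIs, with medians of 48641 to 64521 per control mouse against 6248.5 to 11352 in L.

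Dmc1 had a similar course with a steeper rise. It stood at 56.0, 63.3, 70.1 and 72.0 CPM in SG, at 449.7, 405, 344 and 403 CPM in pL, and at 648, 709, 679 and 644 CPM in L. In Z it fell back to 169, 197, 189.8 and 181 CPM, and in P to 11.3, 15.6, 7.61 and 14.8 CPM. The recombinase transcript was therefore at its highest 1 stage before Meiob, Mnd1 and Rad51ap2.

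The CPM of Rad51c was 37.7, 42.0, 38.9 and 40.8 in SG and 118, 78.3, 80.9 and 90.4 in L. The ranges of L and pL overlapped, because control replicate 1 stood at 105 CPM in pL and the other 3 mice at 45.9 to 54.6 CPM. Rad51c fell to 27.9 to 36.2 CPM in P and to 7.57 to 11.1 CPM in RS. In UMIs per cell its highest stage was P.

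Meiob and Spata22, whose proteins work as 1 complex, were both low before L. Meiob stood at 7.31 to 9.84 CPM in SG and 8.33 to 15.2 CPM in pL, rose to 195, 239, 191 and 188 CPM in L, and was highest in Z at 362, 371, 383 and 387 CPM. Spata22 reached 47.6, 63.4, 51.5 and 50.7 CPM in L and stood at 24.9, 41.5, 35.3 and 33.1 CPM in Z, so that its L and Z ranges did not meet in the main clusters. The order of these 2 stages for Spata22 depended on the clusters, since without integration its highest stage was Z. In UMIs per cell its highest stage was P. Meiob was still at 43.6 to 75.8 CPM in P and Spata22 at 13.5 to 18.3 CPM.

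Rad51ap2 was close to 0 in SG, at 3.46 to 4.58 CPM, and in SG/pL, at 1.98 to 3.58 CPM. It stood at 16.7, 36.8, 20.0 and 25.0 CPM in pL and at 203, 243, 239 and 174 CPM in L, and it was highest in Z at 289, 353, 373 and 369.8 CPM. In P it was down to 11.4 to 27.5 CPM.

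Mnd1 stood at 23.4, 20.8, 23.7 and 27.4 CPM in SG, and the clusters of SG differed. In the cluster led by Glis3 and Zbtb16, a gene that marks undifferentiated SG, Mnd1 stood at 35.4 to 45.0 CPM over the control mice. In the cluster led by Stra8 and Uchl1 it stood at 19.5 to 28.0 CPM, and in the cluster led by Lin28a and Crabp1 at 1.97 to 5.96 CPM. Mnd1 then stood at 12.1 to 20.0 CPM in L and at 140.1, 170.1, 177 and 202 CPM in Z. Every control mouse was far higher in Z than in any other stage.

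Psmc3ip, which encodes the partner of MND1, did not follow Mnd1. It stood at 53.9 to 95.2 CPM in SG, 208 to 269 CPM in Z and 501 to 569 CPM in P, its highest stage. It remained at 391 to 464 CPM in D and at 305 to 387 CPM in RS, where Mnd1 was at 0.523 to 2.84 and 2.80 to 7.56 CPM. Over the 32 sums of a control mouse and a stage, the log2(CPM + 1) of Psmc3ip correlated at r = -0.74 with that of Dmc1, the lowest value of the 36 pairs of genes. These sums share libraries and stages, and the correlation is a description.

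Swsap1 was low in every stage. It was highest in L, at 10.8, 16.8, 12.0 and 17.3 CPM, and again in RS at 11.7, 6.39, 12.2 and 10.3 CPM, with 1.38 to 2.03 CPM in P between. The ranges of L and RS overlapped, and which of them came first depended on the scale.

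**Figure D1:**
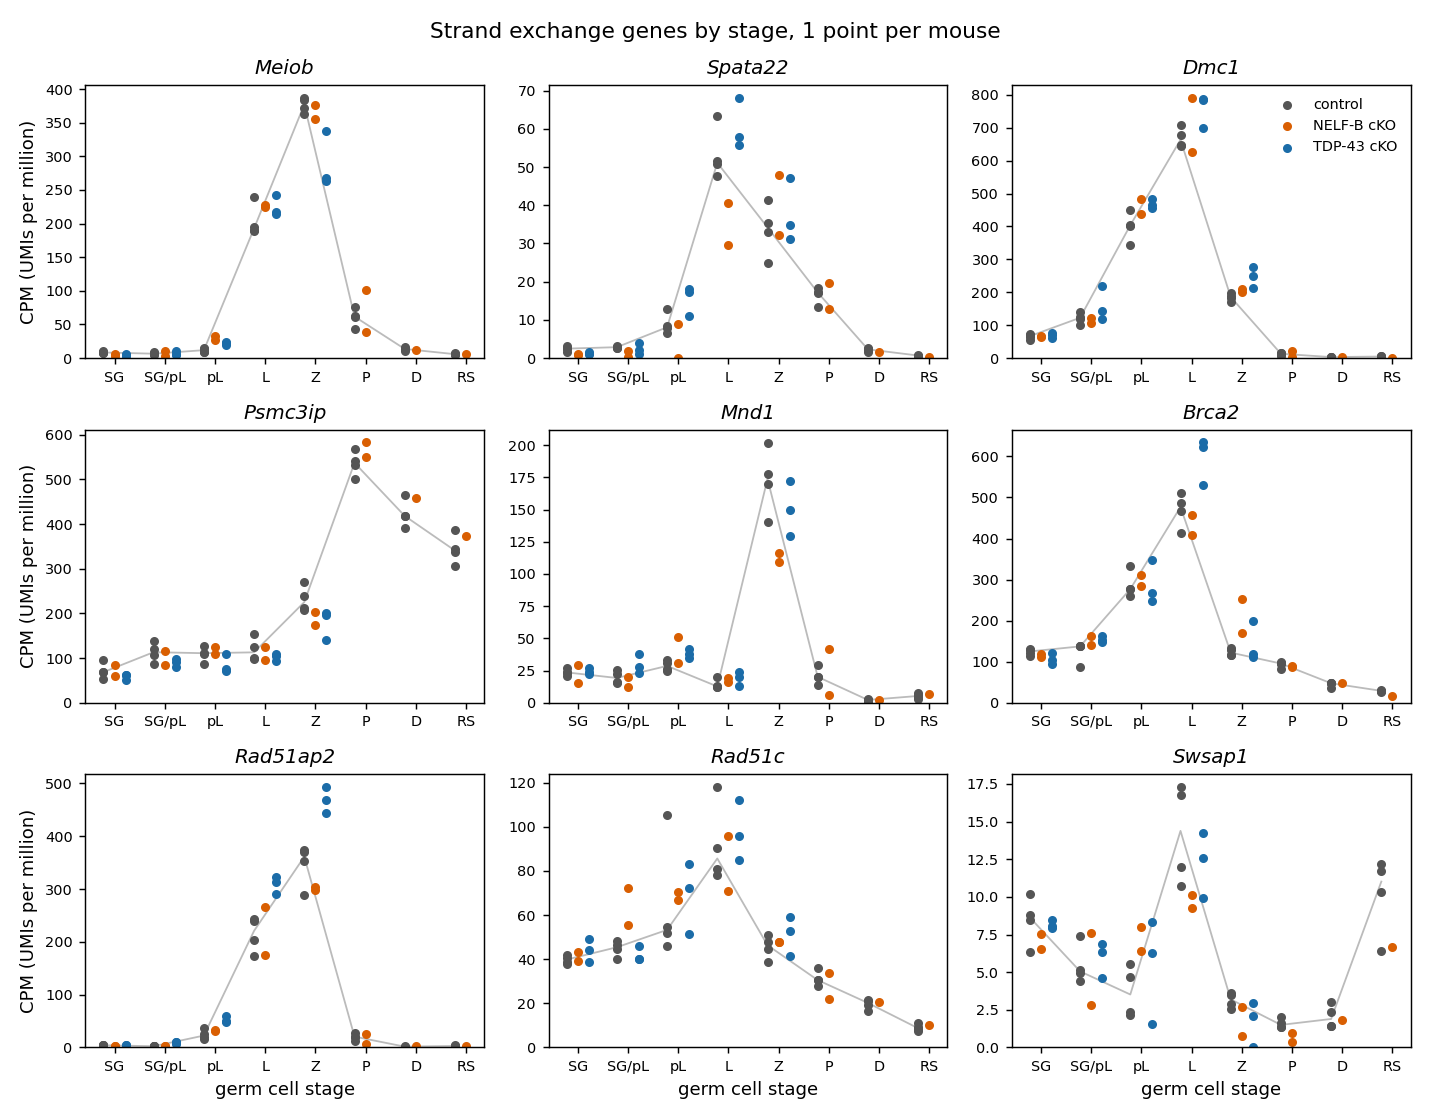
CPM of each of the 9 genes (y axis, a panel per gene with its own scale) in the 8 germ cell stages (x axis), with 1 point per mouse and stage of at least 20 cells, grey for control, orange for NELF-B cKO and blue for TDP-43 cKO, and a grey line through the control medians. Brca2 and Dmc1 were highest in L, Meiob, Rad51ap2 and Mnd1 in Z, and Psmc3ip in P.

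The order of the highest stages was the same for 8 of the 9 genes when each cell was thinned to 2000 UMIs and the share of cells with a UMI was used in place of CPM. In Z, 45.2% to 50.2% of the thinned control cells held a Rad51ap2 UMI and 45.9% to 55.5% a Meiob UMI, against 1.4% to 3.3% and 1.6% to 6.1% of the Sertoli cells of the same mice. In L, 66.7% to 76.6% held a Dmc1 UMI, against at most 3.5% of the Sertoli cells. Cells with fewer UMIs than that were left out of the thinned shares.

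RNA released from broken cells adds to these values. In barcodes with only 1 to 100 UMIs, taken as free RNA, Psmc3ip stood at 42.6 to 466 CPM over the 9 mice, and in Sertoli cells at 8.56 to 162 CPM. The share of free RNA in the germ cell sums was estimated from the Sertoli, Leydig and interstitial markers in them, as an upper value since all of these UMIs were counted as free RNA. In SG it was at most 14.4% to 23.7% in the controls and 4.63% to 13.3% in the cKO mice. The share times the level in free RNA gives the most that free RNA could bring to a gene. For Psmc3ip this was 47.2 to 110 CPM in SG, 54.3 to 139 CPM in pL and 77.4 to 191 CPM in L of the controls, and in each of these stages 2 of the 4 control mice lay at or below it, so that Psmc3ip in SG, pL and L was not told apart from background. In P it was 34.4 to 67.1 CPM, against 501 to 569 CPM measured. For Mnd1 it was 2.12 to 2.64 CPM in SG and 3.47 to 3.90 CPM in L, and the measured levels lay above it. For Meiob in SG it was 3.63 to 6.85 CPM, close to the 7.31 to 9.84 CPM measured. At its highest stage each of the 9 genes stood, in every control mouse, above its level in the free RNA of any library.

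**Figure D2:**
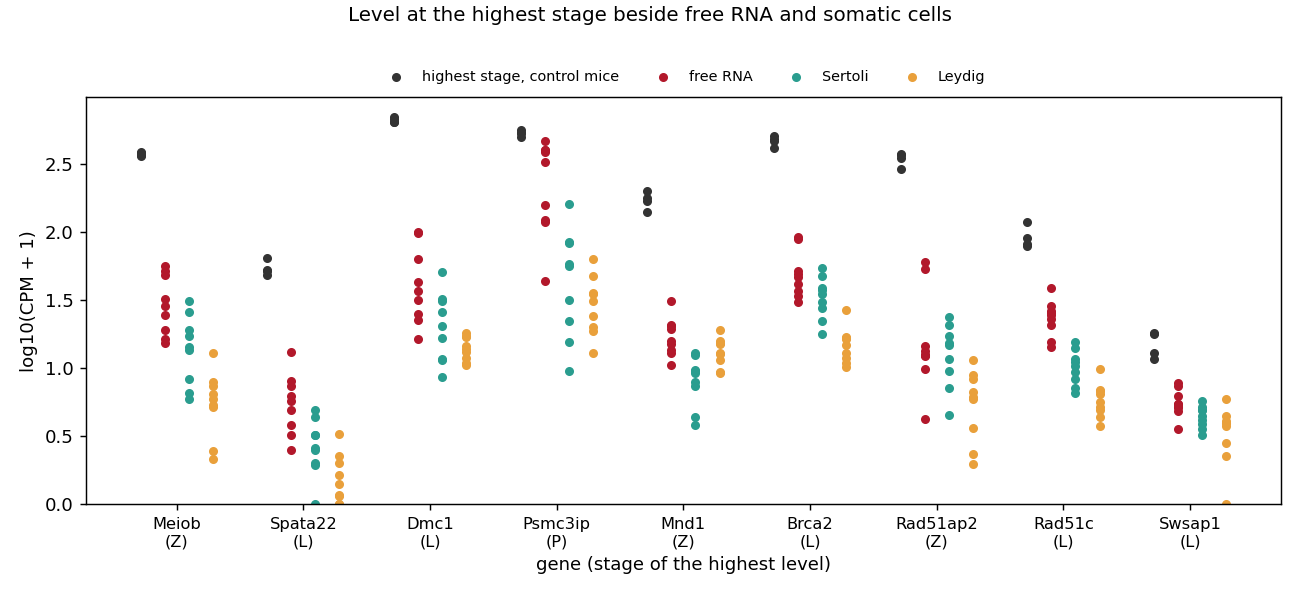
Level of each gene as log10(CPM + 1) (y axis) in its highest stage in the 4 control mice (black), in the free RNA of the 9 libraries (red), and in Sertoli (green) and Leydig cells (yellow) of the 9 mice, 1 point per mouse. The gap on this scale between the highest stage and free RNA was narrowest for Psmc3ip, with 501 to 569 CPM in P against up to 466 CPM.

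The 3 genes closest to each member were taken by the correlation of log2(CPM + 1) over the 32 control sums, as a description. They were Gm30363, Mettl15 and Ccz1 for Meiob (r = 0.97 to 0.93), Rims2, Hfm1 and Zkscan3 for Spata22 (0.97 to 0.95), and Acer3, Rnaset2b and Gm960 for Dmc1 (all 0.99). For Psmc3ip they were Clgn, Abhd8 and Wfdc15a (0.98 to 0.97) and for Mnd1 Efr3a, Ktn1 and Atp6v0b (all 0.93). For Brca2 they were Pcx, Slc7a6 and Fchsd2 (0.98 to 0.97), for Rad51ap2 Aff4, Ccdc18 and Hfm1 (0.98 to 0.93), for Rad51c Setdb1, Cdk11b and Eif4enif1 (all 0.97) and for Swsap1 2510046G10Rik, Tuba4a and Trp53inp2 (0.86 to 0.84). Hfm1, which encodes a helicase of crossover formation, was the gene named for more than 1 member. No member was among the 3 closest of another, out of 12732 genes compared. The members most alike were Brca2 and Rad51c (r = 0.93) and Brca2 and Dmc1 (r = 0.93). Next were Meiob and Rad51ap2 (r = 0.92), Spata22 and Rad51ap2 (r = 0.92) and Meiob and Spata22 (r = 0.91).

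The question between the genotypes was whether the strand exchange genes change when the pausing factor NELF-B or the RNA-binding protein TDP-43 is lost. Early germ cells (SG, SG/pL, pL, L and Z pooled per mouse) were compared first. Genes were tested with edgeR's quasi-likelihood test, adjusted over all genes by Benjamini-Hochberg. At an adjusted p of 0.05, 0 of the 9 genes passed in NELF-B cKO, where 0.0256% of 19503 genes did. An unadjusted p under 0.05 was met by 4 of the 9 and by 3165 of the 19503. In TDP-43 cKO 0 of the 9 passed, where 0.185% of all genes did. There an unadjusted p under 0.05 was met by 2 of the 9 and by 5130 of the 19503. DESeq2 called 4 of the 9 in NELF-B cKO, where it called 5.53% of all genes, and 1 in TDP-43 cKO, where it called 15.0%. The median log2 fold change of the 9 genes was -0.36 in NELF-B cKO, against -0.02 over all genes tested, and -0.05 in TDP-43 cKO, against 0.01.

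In NELF-B cKO, Rad51ap2, Meiob, Mnd1 and Spata22 lay below all controls in the pool without a call by edgeR in the main setting. The share of all genes that did not overlap the controls in the pool was not counted. Within single stages it was 23.3% of all gene and stage pairs in NELF-B cKO and 23.0% in TDP-43 cKO. Mnd1 stood at -0.85 and Spata22 at -0.83 (edgeR adjusted p = 0.146 and 0.164). Rad51ap2 stood at 67.6 to 122 CPM in the controls and at 48.0 and 51.7 CPM in the NELF-B cKO mice (log2 fold change -0.92 ± 0.23 SE, adjusted p = 0.136 with edgeR). In TDP-43 cKO it stood at 62.5, 93.9 and 106 CPM, overlapping the controls (-0.05 ± 0.20). Meiob stood at 82.7 to 129 CPM in the controls, at 61.1 and 57.2 CPM in NELF-B cKO and at 44.8, 58.7 and 64.3 CPM in TDP-43 cKO, with no overlap in either comparison. Its adjusted p was 0.124 and 0.0629 with edgeR. With free RNA subtracted Meiob was called in TDP-43 cKO (-0.97, edgeR adjusted p = 0.0162), where 3.54% of all genes were. It was not called in NELF-B cKO (-0.87, edgeR adjusted p = 0.0522). The share of Z cells in the pool also varied, and its part in these differences was not tested within the pool. Z made up 20.7% to 37.0% of the pooled cells in the controls, 9.42% and 17.3% in NELF-B cKO, and 6.17% in TDP-43 cKO replicate 1, while TDP-43 cKO replicates 2 and 3, at 21.3% and 20.8%, lay within the controls. When cells with the targeted transcript were also removed from the controls, the Meiob difference in TDP-43 cKO was 0.03 (edgeR adjusted p = 0.96), and in NELF-B cKO it was -1.42 (edgeR adjusted p = 0.0294).

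With sums per mouse and stage and the stage as a term (limma-voom, mouse as a block), the difference of Meiob was -0.07 ± 0.15 SE in NELF-B cKO and -0.17 ± 0.13 in TDP-43 cKO, neither called. In that fit 0 of the 9 genes were called in NELF-B cKO, where 18.3% of all genes were. In TDP-43 cKO 2 were called, where 19.0% were: Rad51ap2 was higher by 0.53 ± 0.10 SE (limma adjusted p = 7.1e-05) and Dmc1 by 0.31 ± 0.08 (limma adjusted p = 0.0023). This fit used 45 sums from the 9 mice, with an estimated correlation within a mouse of 0.19, and took 1 effect for all stages. Its p-values thus rest on more sums than there are mice.

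Within single stages, NELF-B cKO could be compared in 6 stages and TDP-43 cKO in 5. Of 51 gene and stage pairs tested in NELF-B cKO 1 was called, lower, where 1.54% of all gene and stage pairs were called. An unadjusted p under 0.05 was met by 8 of the 51. Over all genes it was met by 2161 of 18015 in SG, 1805 of 13188 in SG/pL and 1356 of 8936 in pL. In the later stages it was met by 2348 of 10610 in L, 2591 of 11989 in Z and 1458 of 16064 in P. Of 42 pairs in TDP-43 cKO 3 were called, all higher, where 2.77% of all pairs were. An unadjusted p under 0.05 was met by 12 of the 42. Over all genes it was met by 3321 of 18015 in SG, 2638 of 13188 in SG/pL and 1221 of 8936 in pL. In the later stages it was met by 2495 of 10610 in L and 3394 of 11989 in Z. In 3 pairs of each comparison the gene was too low to test. The cKO and control mice did not overlap in 13 of the 51 and in 14 of the 42 pairs, and over all genes in 23.3% and 23.0% of pairs. In NELF-B cKO these were Meiob, Spata22 and Rad51ap2 in SG, Spata22 and Swsap1 in L, Psmc3ip and Mnd1 in Z and Swsap1 in P, all lower, and Brca2 and Rad51c in SG/pL, Meiob in pL and Dmc1 and Brca2 in Z, all higher. In TDP-43 cKO they were Meiob and Spata22 in SG and Meiob and Psmc3ip in Z, lower, and Brca2 and Rad51ap2 in SG/pL, Meiob, Dmc1, Mnd1 and Rad51ap2 in pL, Brca2 and Rad51ap2 in L and Dmc1 and Rad51ap2 in Z, higher.

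**Figure D3:**
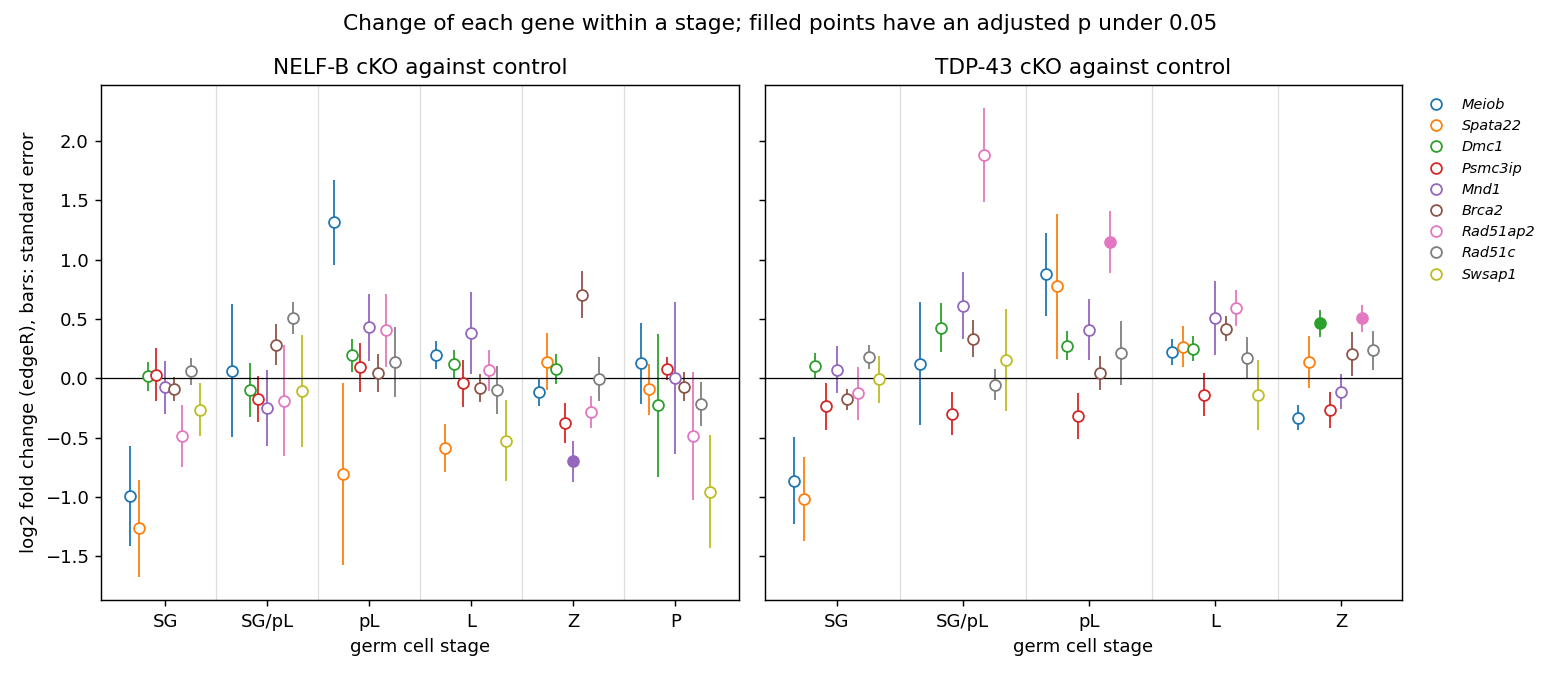
Log2 fold change against control with its standard error from edgeR (y axis) for each gene in each stage (x axis), NELF-B cKO at left and TDP-43 cKO at right, where filled points have an adjusted p under 0.05. The filled points are Mnd1 in Z of NELF-B cKO at -0.70, and Rad51ap2 in pL and Z and Dmc1 in Z of TDP-43 cKO at 1.15, 0.50 and 0.46.

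The cKO comparisons share the 4 control mice. In Z, Rad51ap2 stood at 289, 353, 373 and 369.8 CPM in the controls and at 445, 469 and 493 CPM in the TDP-43 cKO mice. All 3 cKO mice lay above all 4 controls, and the log2 fold change was 0.50 ± 0.12 SE (edgeR adjusted p = 0.016). Among the genes tested in Z, 13.2% were called in TDP-43 cKO.

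In pL Rad51ap2 stood at 16.7, 36.8, 20.0 and 25.0 CPM in the controls and at 59.8, 50.2 and 48.5 CPM in TDP-43 cKO (1.15 ± 0.26 SE, edgeR adjusted p = 0.0482), where 1.33% of genes were called. These values rest on 6 to 17 UMIs per control mouse and 31 to 43 per cKO mouse. The free RNA of the same libraries held Rad51ap2 at 3.26 to 13.6 CPM in the controls and at 11.3, 52.8 and 59.7 CPM in TDP-43 cKO replicates 1 to 3. At its estimated share, at most 7.10% to 10.5% in pL of TDP-43 cKO, free RNA could bring at most 6.25 CPM there, and at most 0.975 to 3.34 CPM in the controls. The 6 Z markers summed to 4317 to 4862 CPM in pL of the controls and 5582 to 6280 CPM in TDP-43 cKO, none of them at 0. The SG list was also above all controls, at 485 to 538 against 378 to 480.0 CPM, as was the endothelial list, at 4.17 to 10.9 against 1.18 to 2.78 CPM. The P, D and RS lists were below all controls, with P at 63.9 to 114 against 212 to 266 CPM, D at 64.1 to 77.8 against 104 to 192 CPM and RS at 6.95 to 17.2 against 69.3 to 186 CPM. Their part in the result was not tested. With DESeq2 the pL difference was not called (adjusted p = 0.102), nor with no cell left out (0.80, edgeR adjusted p = 0.0941). The groups were apart in SG/pL and L as well, without a call by edgeR in the main setting. In SG/pL the controls stood at 1.98 to 3.58 CPM and the cKO mice at 7.42 to 10.8 CPM (1.88 ± 0.40 SE, edgeR adjusted p = 0.121), where free RNA could bring at most 0.612, 6.58 and 7.45 CPM in TDP-43 cKO replicates 1 to 3. In L they stood at 174 to 243 CPM and 290.0 to 323 CPM (0.60 ± 0.15, edgeR adjusted p = 0.0593).

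In the NELF-B cKO mice, by contrast, Rad51ap2 stood at 304 and 297 CPM in Z, inside the range of the controls (-0.29 ± 0.13, edgeR adjusted p = 0.241). The TDP-43 cKO effect on Rad51ap2 differed among the 5 early stages (interaction of genotype and stage, limma adjusted p = 0.048), a test that 11.3% of all genes passed. In SG Rad51ap2 stood at 3.17 to 3.93 CPM in TDP-43 cKO, which overlapped the controls at 3.46 to 4.58 CPM.

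Dmc1 was the other gene called in TDP-43 cKO. In Z it stood at 169, 197, 189.8 and 181 CPM in the controls and at 276, 212 and 248 CPM in the cKO mice, which did not overlap (0.46 ± 0.11 SE, edgeR adjusted p = 0.0211). In pL the cKO mice, at 464, 485 and 457 CPM, were also all above the controls, at 344 to 449.7 CPM, without a call (0.28 ± 0.12, edgeR adjusted p = 0.341). In L they stood at 784, 698 and 787 CPM against 644 to 709 CPM, and overlapped.

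The free RNA of TDP-43 cKO also held more Dmc1, at 63.0 to 100.2 CPM, against 15.3 to 42.0 CPM in the controls. Both calls in Z were lost when the estimated free RNA was subtracted, where Rad51ap2 stood at 0.30 (edgeR adjusted p = 0.136) and Dmc1 at 0.24 (0.182). In Z, free RNA could bring at most 0.604 to 7.51 CPM of Rad51ap2 in TDP-43 cKO. Its estimated share was higher in the controls, at 22.5% to 30.1% in Z, than in TDP-43 cKO, at 5.36% to 14.2%, and the subtraction also takes this share from the total to which CPM is scaled. When Tardbp-positive cells were removed from the controls too, Rad51ap2 was called in Z (0.57, edgeR adjusted p = 0.0291) and Dmc1 was not (0.38, edgeR adjusted p = 0.389). The call of Rad51ap2 in Z was lost without TDP-43 cKO replicate 2 or 3, and that of Dmc1 without TDP-43 cKO replicate 1 or 3 or control replicate 1, 3 or 4. The call of Rad51ap2 in pL was lost without any 1 of the 3 TDP-43 cKO mice, or without control replicate 1, 3 or 4.

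In the Z cells of TDP-43 cKO the SG, pL, L, Z and Leydig marker lists stood above all controls and the P and D lists below them. The summed level of the 5 L markers was 1637 to 1855 CPM in the Z cells of the controls and 2524 to 2906 CPM in those of TDP-43 cKO, and the 5 pL markers stood at 335 to 445 and 596 to 676 CPM. The 6 Z markers stood at 10318 to 12074 and 12162 to 12834 CPM. The 5 P markers stood at 498 to 661 and 321 to 434 CPM. The 5 D markers stood at 278 to 371 and 214 to 235 CPM. The 7 SG markers stood at 26.4 to 34.7 and 41.6 to 145 CPM, and the 6 Leydig markers at 15.0 to 25.0 and 25.3 to 39.2 CPM. The part of these lists in the Rad51ap2 and Dmc1 results was not tested. Sertoli markers stood at 114 to 224 CPM in the Z cells of the controls and 176 to 249 CPM in TDP-43 cKO.

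Z was made of 2 clusters, and Rad51ap2 was itself among the 10 leading genes of both, as was Meiob in cluster 5. Cluster 5 also had Ccnb3 and Prss50, which are also L markers, among its leading genes, and cluster 8 had Gml, which also led a P cluster. Control mice had 49.4% to 60.9% of their Z cells in cluster 5, and TDP-43 cKO replicates 1 to 3 had 70.0%, 56.0% and 54.5%. Within cluster 5 Rad51ap2 stood at 282 to 361 CPM in the controls and at 508, 541 and 505 CPM in TDP-43 cKO. Within cluster 8 it stood at 296 to 384 CPM in the controls and at 411 and 484 CPM in TDP-43 cKO replicates 2 and 3. The groups were apart in both clusters, and replicate 1 had too few cells in cluster 8.

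Meiob was not called in Z with the counts as deposited (-0.33 ± 0.11 SE, edgeR adjusted p = 0.06). With free RNA subtracted it was called lower (-0.54, edgeR adjusted p = 0.00685), where 4.43% of all gene and stage pairs were called. Meiob differed between these clusters. In cluster 5 it stood at 352 to 451 CPM in the controls and 370.3 to 444 CPM in TDP-43 cKO, and the groups overlapped. In cluster 8 it stood at 371, 322, 371 and 373 CPM in the controls, at 326 and 336 CPM in NELF-B cKO and at 177 and 192 CPM in TDP-43 cKO replicates 2 and 3. These cluster values were looked at after the stage results, and no test was made on them. Over the early stages the TDP-43 cKO effect on Meiob differed among the stages (limma adjusted p = 0.019). It was 0.88 ± 0.35 in pL, where the cKO mice stood at 19.5 to 23.5 CPM and the controls at 8.33 to 15.2 CPM, and -0.33 in Z.

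**Figure D4:**
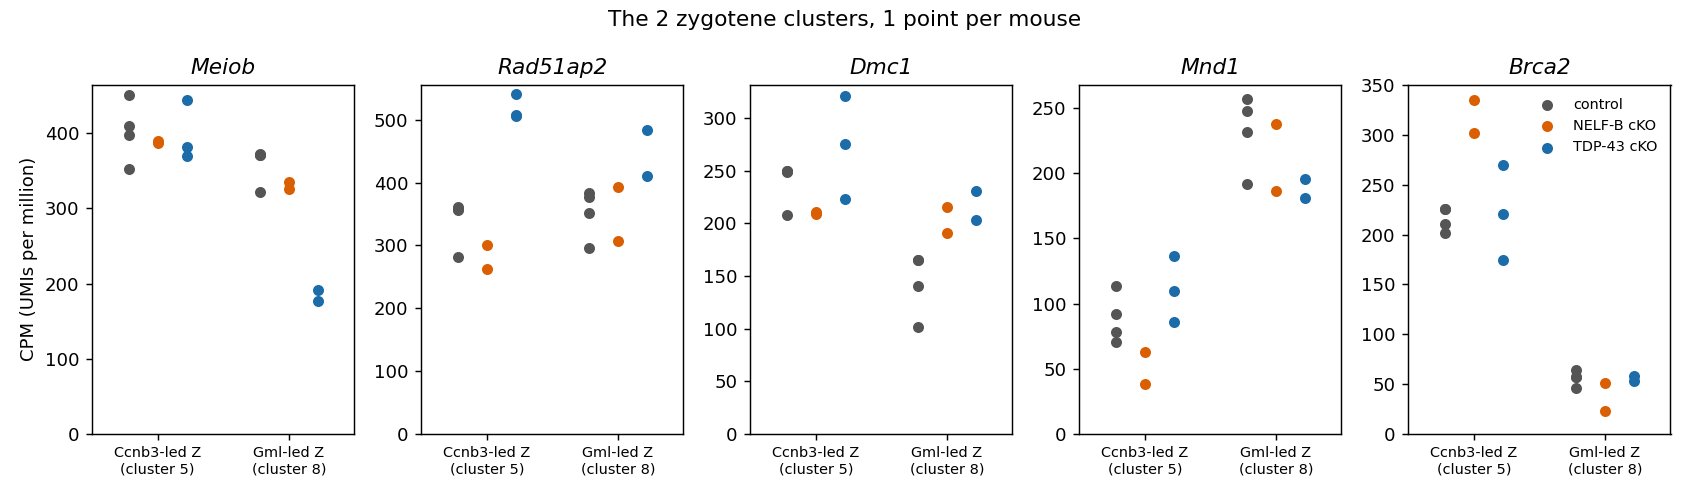
CPM of Meiob, Rad51ap2, Dmc1, Mnd1 and Brca2 (y axis, 1 panel per gene) in the 2 Z clusters (x axis: cluster 5, with Ccnb3 among its leading genes, and cluster 8, with Gml), 1 point per mouse with at least 20 cells in the cluster, in grey for control, orange for NELF-B cKO and blue for TDP-43 cKO. Meiob stood at 177 and 192 CPM in cluster 8 of TDP-43 cKO and at 322 to 373 CPM in the controls.

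Brca2, which loads recombinase, did not pass the test in L of TDP-43 cKO. It stood at 622, 530.0 and 634 CPM, all above the controls at 413 to 511 CPM (0.42 ± 0.10 SE, edgeR adjusted p = 0.0588), and 0.254% of genes were called in L. Brca2 and Rad51ap2 were called in L with DESeq2, with no filter, with the 2 genotypes alone and with cells left out of controls too. Over all gene and stage pairs of TDP-43 cKO these settings called 7.98%, 4.79%, 10.9% and 1.8%, in that order. Both genes were also called with no cell left out and with clusters made without integration. The shares for these, and for L alone, are not given here. In L of TDP-43 cKO the pL, L and Z marker lists stood above all controls and the P, D and RS lists below them, with the 5 L markers at 3764 to 3905 against 2977 to 3167 CPM, the 5 pL markers at 1804 to 2039 against 1445 to 1587 CPM and the 6 Z markers at 9572 to 10372 against 7415 to 7690 CPM. The P list stood at 195 to 257 against 338 to 444 CPM, the D list at 46.0 to 78.6 against 156 to 279.6 CPM and the RS list at 13.9 to 23.9 against 65.3 to 298 CPM. Their part in these values was not tested. With free RNA subtracted neither was called in L, where Brca2 stood at 0.17 (edgeR adjusted p = 0.332) and Rad51ap2 at 0.34 (edgeR adjusted p = 0.255).

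In NELF-B cKO, Mnd1 in Z was the 1 pair called. It stood at 140.1, 170.1, 177 and 202 CPM in the controls and at 116 and 109 CPM in NELF-B cKO replicates 1 and 2, without overlap. The log2 fold change was -0.70 ± 0.17 SE (edgeR adjusted p = 0.0434), and 4.14% of the genes tested in Z were called. The call was lost without NELF-B cKO replicate 2, without control replicate 2, 3 or 4, or without TDP-43 cKO replicate 2 or 3, which share in the estimate of the spread. It was also lost when Nelfb-positive cells were removed from the controls too (-0.55, edgeR adjusted p = 0.158). In the Z cells of NELF-B cKO the 5 L markers stood at 2191 to 2439 CPM against 1637 to 1855 in the controls, the 6 Z markers at 9461 to 10255 against 10318 to 12074, and the 6 Leydig markers at 55.5 to 109.9 against 15.0 to 25.0. The SG list, at 42.6 to 50.1 against 26.4 to 34.7 CPM, and the interstitial list, at 11.4 to 27.5 against 1.60 to 6.56 CPM, were also above all controls. Their part in the Mnd1 result was not tested. Cluster 8, in which Mnd1 is higher, held 42.4% and 22.0% of the Z cells of NELF-B cKO replicates 1 and 2, and 39.1% to 50.6% of those of the controls. Within cluster 5 Mnd1 stood at 70.8 to 113 CPM in the controls and at 38.5 and 63.0 CPM in NELF-B cKO, and within cluster 8 at 192 to 257 and at 186 and 238 CPM.

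The Mnd1 of SG differed between the NELF-B cKO mice, at 15.6 and 29.4 CPM, and the controls lay between them at 20.8 to 27.4 CPM. Within the cluster led by Glis3 and Zbtb16 the 2 mice were alike, with 45.5 and 45.9 CPM. For Mnd1 the NELF-B cKO effect differed among the early stages (limma adjusted p = 0.029), a test that 14.4% of all genes passed.

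Brca2 in Z moved the other way in NELF-B cKO, with no call. It stood at 116 to 133 CPM in the controls and at 169.5 and 252 CPM in NELF-B cKO replicates 1 and 2 (0.70 ± 0.20 SE, edgeR adjusted p = 0.0657). Within cluster 5 the values were 202 to 226 CPM and 302 and 335 CPM, which did not overlap, and within cluster 8 they were 45.6 to 64.3 CPM and 50.5 and 22.4 CPM. Without replicate 2 the change was 0.37 (edgeR adjusted p = 0.352), and without replicate 1 it was 0.94 (adjusted p = 0.0106). Its difference among the early stages passed the interaction test (limma adjusted p = 0.014).

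Meiob stood at 32.9 and 27.2 CPM in pL of NELF-B cKO, above the 8.33 to 15.2 CPM of the controls (1.31 ± 0.36 SE, edgeR adjusted p = 0.101), on 17 to 37 UMIs per cKO mouse and 3 to 12 per control mouse. Free RNA could bring at most 1.43 and 3.16 CPM of this in NELF-B cKO and 4.57 to 7.95 CPM in the controls. Among the genes tested in pL 1.12% were called in NELF-B cKO. There the SG marker list stood at 524 to 631 against 378 to 480.0 CPM in the controls. The Z list stood at 4930 to 4935 against 4317 to 4862 CPM. The Leydig list stood at 55.2 to 92.9 against at most 21.2 CPM. The endothelial and macrophage lists were also above all controls, at up to 27.2 and 3.20 CPM. The P list was below all controls, at 78.5 to 211 against 212 to 266 CPM. The part of these lists in the Meiob result was not tested. Spata22 in L stood at 29.5 and 40.6 CPM in NELF-B cKO and at 47.6 to 63.4 CPM in the controls (-0.59 ± 0.20, edgeR adjusted p = 0.114). With free RNA subtracted Meiob in pL and Spata22 in L were called (2.26 and -0.77, edgeR adjusted p = 0.0204 and 0.0213). With that subtraction 3.55% of all gene and stage pairs were called. Meiob, the partner of Spata22, stood at 225 and 227 CPM in L, within the controls (0.20 ± 0.12, edgeR adjusted p = 0.359), and the difference between the genes was not tested. In the same stage 5.53% of all genes were called.

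Psmc3ip, Rad51c and Swsap1 had no call in any stage of either comparison with the counts as deposited and the stages as defined. With free RNA subtracted Psmc3ip was called higher in L of NELF-B cKO and TDP-43 cKO (2.32 and 2.65, edgeR adjusted p = 0.0386 and 0.0266) and in SG of TDP-43 cKO (4.14, edgeR adjusted p = 0.0308), stages in which 2 of the 4 controls lay at or below the level that free RNA could bring. With the low-UMI clusters kept it was called lower in P of TDP-43 cKO (-0.96, edgeR adjusted p = 0.00822). Psmc3ip in Z stood at 208 to 269 CPM in the controls, at 202 and 175 CPM in NELF-B cKO and at 141, 201 and 197 CPM in TDP-43 cKO. Both cKO groups lay below all controls without a call (-0.38 ± 0.17 SE and -0.26 ± 0.15, edgeR adjusted p = 0.223 and 0.273). Free RNA could bring at most 74.1 to 140 CPM of this in the controls, 79.5 and 14.7 CPM in NELF-B cKO and 2.29 to 22.5 CPM in TDP-43 cKO. With free RNA subtracted the Z differences were -0.07 and 0.28 (edgeR adjusted p = 0.89 and 0.328), so the direction in TDP-43 cKO turned. Psmc3ip in P stood at 550.2 and 585 CPM in NELF-B cKO and at 501 to 569 CPM in the controls (0.08 ± 0.10, edgeR adjusted p = 0.872), a stage in which 0.00623% of genes were called. Within cluster 9 it stood at 560.2 CPM in NELF-B cKO replicate 1 and at 524 to 582 CPM in the controls. Its D level was 458 CPM in NELF-B cKO replicate 1, inside the range of the controls. Rad51c in SG/pL stood at 55.7 and 72.4 CPM in NELF-B cKO and at 40.1 to 48.1 CPM in the controls (0.51 ± 0.14 SE, edgeR adjusted p = 0.159), and 0.22% of genes were called there. Swsap1 in L stood at 9.24 and 10.2 CPM in NELF-B cKO against 10.8 to 17.3 CPM (-0.52 ± 0.34, edgeR adjusted p = 0.401). These differences did not pass the test with 2 NELF-B cKO mice.

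In SG, where 0.0111% of genes were called in NELF-B cKO and 0.00555% in TDP-43 cKO, no member was called. Dmc1 stood at 66.7 and 64.8 CPM in NELF-B cKO and 60.4, 75.5 and 69.6 CPM in TDP-43 cKO, within or near the controls at 56.0 to 72.0 CPM. Brca2 stood at 119.7 and 111 CPM and at 93.7, 104 and 121 CPM, against 114 to 130.2 CPM. Meiob and Spata22 were below the controls in both, at levels under those of free RNA itself, and were not called. Spata22 stood at 1.56 to 3.08 CPM in the controls, at 0.840 and 1.15 CPM in NELF-B cKO (-1.26 ± 0.41 SE, edgeR adjusted p = 0.317) and at 0.953 to 1.46 CPM in TDP-43 cKO (-1.02 ± 0.35, edgeR adjusted p = 0.167). In SG/pL 0.0152% of genes were called in TDP-43 cKO, and Mnd1 stood there at 37.7, 28.0 and 22.8 CPM, against 15.6 to 25.2 CPM (0.61 ± 0.28 SE, edgeR adjusted p = 0.266).

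A list of 52 other recombination genes, chosen by function, was used as the surrounding pathway. In L of NELF-B cKO, where 5.53% of all genes were called, 3 of 48 tested genes were higher and 6 lower. The genes with the largest fall were Spo11, which encodes the nuclease that makes the breaks (-1.25 ± 0.18 SE, edgeR adjusted p = 0.0056), Hsf2bp, whose product binds BRCA2 (-1.06 ± 0.14, edgeR adjusted p = 0.0047), and Zswim7, which encodes the partner of SWSAP1 (-0.95 ± 0.15, edgeR adjusted p = 0.0089). The genes that rose were Nbn, Mei1 and Atm, at 0.68, 0.63 and 0.60. Spo11 stood at 39.6 and 48.3 CPM in NELF-B cKO and at 99.8 to 128 CPM in the controls. Hsf2bp stood at 111 and 139.7 against 238 to 303 CPM, and Zswim7 at 37.0 and 45.7 against 74.9 to 86.0 CPM. Both mice lay below every control for these 3 genes, and the fits of the listed genes were not repeated without either mouse. Hormad1, which is also a marker of L and Z here, rose in pL (0.65 ± 0.15, edgeR adjusted p = 0.05, where 1.12% of all genes were called), and no listed gene was called in SG, SG/pL, Z, P or the pool. The marker lists that stood apart in pL of NELF-B cKO are given above with Meiob. Their part in the Hormad1 result was not tested. In the L cells of NELF-B cKO the L list stood at 3592 to 3840 against 2977 to 3167 CPM in the controls, the pL list at 1697 to 1833 against 1445 to 1587 CPM and the Leydig list at 63.8 to 88.0 against 10.9 to 33.8 CPM. The endothelial and macrophage lists were also above all controls, at up to 10.2 and 5.93 CPM. The P list was below them, at 205 to 321 against 338 to 444 CPM, and the part of these lists in the pathway counts was not tested. The median log2 fold change of the recombination genes in L was -0.10, against -0.05 over all genes.

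In TDP-43 cKO, 2 of 48 listed genes were called higher in L and none lower, where 0.254% of all genes were called. In Z, 3 of 48 were called higher and 1 lower, where 13.2% of all genes were. Spo11 was not called in L, but its 59.3, 73.6 and 78.4 CPM in TDP-43 cKO lay below the controls at 99.8 to 128 CPM. Hsf2bp and Zswim7 overlapped the controls there. Atm, the kinase that senses breaks, rose in L (0.70 ± 0.12 SE, edgeR adjusted p = 0.042) and in Z (0.87 ± 0.21, edgeR adjusted p = 0.02). Hormad1 rose in L at 0.65. In Z, Tex11 and Sfr1 rose by 0.60 and 0.48, and Mlh3, a crossover endonuclease subunit, fell by 0.78. No listed gene was called in SG, SG/pL, pL or the pool. The median of the list in Z was -0.07, against 0.01 over all genes, and the members' median there was 0.17.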

How the data were processed

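The 9 members, the gene lists and the tests were chosen with earlier results of these data known. The deposited matrices hold whole-number UMI counts, made by the authors from 3′ libraries with Cell Ranger (7.0.0 in the processing notes) against mm10, without normalization. Whether the counts include intronic reads is not given in the sources used here.

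A barcode needed more than 1000 genes and less than 10% mitochondrial transcripts. No doublet caller was run. Cells were clustered with scanpy 1.11.5 (3000 genes, 40 components, resolution 0.8), and germ cells were integrated with Seurat 5.3.0 by reciprocal PCA in place of the method of the study. Clusters took the stage of the highest marker score with at least 3 markers 2-fold up. Clusters with a median under 5000 UMIs (4773 of 19977 germ cells) were left out, a limit set after the clusters were seen, as was the SG/pL stage. A mouse needed 20 cells in a stage. Sums were tested with edgeR 4.0.16 (filterByExpr, TMM, quasi-likelihood, all 9 mice in 1 fit) and Benjamini-Hochberg adjustment over all genes. DESeq2 1.42.0 and limma 3.58.1 were alternatives, beside other scalings, filters, cells and mice. The tests were checked on simulated data. Named genes were all members, the 3 genes most alike to each, the pathway genes called with the largest fold change (up to 3 a direction, or all where 5 or fewer were called) and the targeted genes. The values by cluster were looked at after the stage results. Total depth was 119203347 to 159407373 UMIs per library.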

Additional observations from a re-analysis of the deposited data

Results flagged for a closer look

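Of 72 groups of the 4 control mice (9 genes in 8 stages), 6 held a mouse far from the other 3, where chance flags about 1 in 20. Control replicate 1 was the distant mouse in 5 of them. It stood at 35.2 CPM for Brca2 in D against 46.9 to 48.3, at 88.1 CPM for Brca2 in SG/pL against 137 to 139, at 105 CPM for Rad51c in pL against 45.9 to 54.6, at 20.0 CPM for Mnd1 in L against 12.1 to 13.2, and at 0.254 CPM for Spata22 in RS against 0.658 to 0.672. The Spata22 values in RS all lay below its level in the free RNA of the 9 libraries, at 1.50 to 12.2 CPM. Control replicate 2 stood at 239 CPM for Meiob in L against 188 to 195.

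In 6 cases the effect of a genotype differed among the 5 early stages by an interaction of genotype and stage in limma-voom, adjusted over 13749 genes. In NELF-B cKO these were Meiob (limma adjusted p = 0.0037), Brca2 (0.014) and Mnd1 (0.029), and in TDP-43 cKO they were Meiob (0.019), Brca2 (0.033) and Rad51ap2 (0.048). The test was added after the data were seen, and all genes passed it at 14.4% and 11.3%.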

How the results depend on the processing

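In early germ cells the count of members called was 0 in both comparisons. It was 4 in NELF-B cKO with DESeq2 (5.53% of all genes called) and 4 with cells left out of the controls too (4.45%). In TDP-43 cKO it was 1 with DESeq2 (15.0% of all genes), with free RNA subtracted (3.54%) and with the 2 genotypes compared alone (16.5%), and 2 with the stage as a term (19.0%). With each mouse left out the count was 0 to 1 in TDP-43 cKO, and the share of all genes called in those fits is not given here. Of pairs of gene and stage, 1 was called in NELF-B cKO, which became 2 with DESeq2 (3.08% of all pairs called), 2 without the filter (2.04%), 4 with free RNA subtracted (3.55%), and 0 with cells left out of the controls too (0.855%), at the threshold of the study or with the 2 genotypes alone (0.452%). In TDP-43 cKO 3 pairs became 6 with DESeq2 (7.98%), 5 without the filter (4.79%), 7 with the 2 genotypes alone (10.9%) and 0 at the threshold of the study. With free RNA subtracted the pairs called in TDP-43 cKO were Psmc3ip in SG and L and Meiob in Z (4.43% of all pairs called). None of the 3 main pairs was among them. Calls lost with a mouse left out are named with each pair above. In some of these fits other pairs were called, and no count is given without the share over all pairs. The replicate block gave 0 pairs in both comparisons. Same-numbered mice were not paired, since the labels give no pairing. The correlation of their deviations ran from -0.41 to 0.38, and it was 0.38 and 0.33 between control and NELF-B cKO mice. Because the deviations of the 2 NELF-B cKO mice mirror each other, these values cannot decide whether mice were paired. In UMIs per cell 5 of the 9 genes kept their highest stage. Brca2, Rad51c and Spata22 moved from L to P on that scale, and Swsap1 from L to RS. The 4 called pairs kept their direction in all 20 or 21 alternatives that gave a value, which reuse the same mice. The call itself was lost in 12 of 20 alternatives for Rad51ap2 in pL. In Z it was lost in 11 of 21 for Dmc1, 10 of 21 for Mnd1 and 5 of 21 for Rad51ap2. The low-UMI clusters were kept in an alternative added after the data were seen, and its call of Psmc3ip in P of TDP-43 cKO is given above.

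Values are limited by 2 NELF-B cKO mice, by the small sums of pL (6 to 43 UMIs of Rad51ap2 per mouse) and by free RNA. Removal of cells with the targeted transcript was made in the cKO mice alone, as in the study. In the pool of early cells the Meiob difference in TDP-43 cKO was -0.79, and 0.03 when the controls were treated alike.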
